A study of Caenorhabditis elegans with 40 samples.

Results

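The *C. elegans* genes named spe (spermatogenesis-defective) or fer (fertilization-defective) with a number are genes whose mutations leave the animal without working sperm, and 22 of them are among the 41560 genes in the deposited tables. They were taken by name alone, so that no measured value entered the choice. RNA of whole animals was sequenced to follow how gene expression differs with propagation temperature, adult age and the neuronal G protein-coupled receptor NPR-8. Each of 8 groups holds 5 libraries, 40 in all: old *npr-8(ok1439)* and old wild-type N2 animals, each propagated at 25°C or at 20°C, and the same 4 combinations of genotype and temperature in young adults. Old animals were 9 days old, and young animals were 1 day old in the study's methods but 0 days old in the sample labels. All animals were fed *E. coli* OP50 and kept at their temperature for generations before collection, and the old ones were washed daily and filtered so that adults were kept. The *npr-8* strain carries the *ok1439* deletion allele, and its genotype was taken from the labels: *npr-8* RNA was at 1.71 to 3.20 CPM in 15 *npr-8(ok1439)* libraries and at 1.33 to 3.06 CPM in the 20 wild-type libraries. CPM is the number of sequenced fragments per 1000000 after scaling of all 40 libraries, which hold 18690583 to 36883662 fragments each.

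A *C. elegans* hermaphrodite makes its sperm first, near the end of larval life, and then turns its germ line to oocytes for the rest of its life. Transcription stops while the cells are still spermatocytes, so the messages of sperm genes are made before the spermatids bud off. Sperm are later activated by building a pseudopod. The spe and fer genes act along this line: control of transcription in the spermatocyte (*spe-44*), building of the spermatocyte's organelles and budding of the spermatids (among others *spe-4*, *spe-5*, *spe-6*, *spe-10*, *spe-15*, *spe-26*, *spe-39*), activation (*spe-8*, *spe-12*, *spe-19*, *spe-27*, *spe-29*, *spe-46*, *spe-47*), fusion of the membranous organelles with the cell surface (*fer-1*), contact with the egg (*spe-9*, *spe-38*, *spe-41*, *spe-42*) and supply of the embryo (*spe-11*). Because whole animals were sequenced, fewer sperm-producing cells and less RNA in each such cell cannot be told apart.

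The members sit unevenly in the genome. On the ce10 build 11 of the 22 lie on chromosome I, or 50% of them against 16.2% of the 16178 genes listed with a position, and 5 lie on chromosome IV, 4 on V and 2 on III. No member lies on chromosome II or on the X chromosome, which holds 13.9% of the listed genes. Genes that received a spe number later were not counted here, and *spe-18* and *spe-57* among them lie on chromosome II. The interval of *spe-44* is chrIV:12452262-12454058, that of *fer-1* chrI:8623150-8631178, that of *spe-11* chrI:5330646-5332160 and that of *spe-19* chrV:20040958-20047367. Intervals of over 100000 bases, which run across other genes, are given for *spe-5*, *spe-6*, *spe-12*, *spe-15*, *spe-41* and *spe-47*, and the tables do not say how fragments were split where genes overlap.

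Compared per length of transcript (FPKM, fragments per kilobase of transcript and per 1000000 fragments, as the authors scaled them within each table), the sperm genes differed widely in level in young wild-type animals kept at 20°C. At the top stood *spe-46*, an activation gene, with 97.1 ± 7.68 FPKM, and *spe-11*, with 93.6 ± 7.05 FPKM (SD, n = 5 each), and these 2 did not differ beyond their spread. The next were *spe-15*, which encodes a myosin VI, with 66.6 ± 5.12 FPKM, and *spe-4*, a presenilin family member, with 65.2 ± 5.06 FPKM, again within each other's spread. At the bottom were *fer-1* with 9.29 ± 0.632 FPKM, *spe-9* with 7.51 ± 0.440 FPKM, *spe-42* with 7.25 ± 1.03 FPKM and *spe-29* with 5.14 ± 3.40 FPKM. Abundance did not follow the roles: the activation genes alone ran from *spe-29* at the lowest to *spe-46* at the highest level.

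Across the 8 groups, 17 of the 22 members had their highest mean level (CPM) in young wild-type animals kept at 20°C. The exceptions were *spe-12* and *spe-15*, highest in young *npr-8* animals at 20°C, *spe-44* and *spe-5*, highest in old *npr-8* animals at 20°C, and *spe-39*, highest in young wild-type animals at 25°C. Set against young wild-type animals at 20°C, the median member stood at 13.6% of that level in old *npr-8* animals at 25°C, 2.81% in old wild-type animals at 25°C, 23.9% in old *npr-8* animals at 20°C and 2.72% in old wild-type animals at 20°C. In young animals it stood at 18.3% in *npr-8* animals at 25°C, 8.30% in wild-type animals at 25°C and 64.4% in *npr-8* animals at 20°C. The median was thus higher in old *npr-8* animals than in old wild-type animals at either temperature. Members were tested with edgeR over all genes of a comparison, and a gene was called where its adjusted p was under 0.05 and its log2 fold change at least 1 in size. The labels do not say that libraries of a group came from separate cultures, so the p-values measure the spread between these libraries, which may be technical. Each group of libraries serves in several comparisons, so values of different comparisons are set side by side and not correlated.

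**Figure D1:**
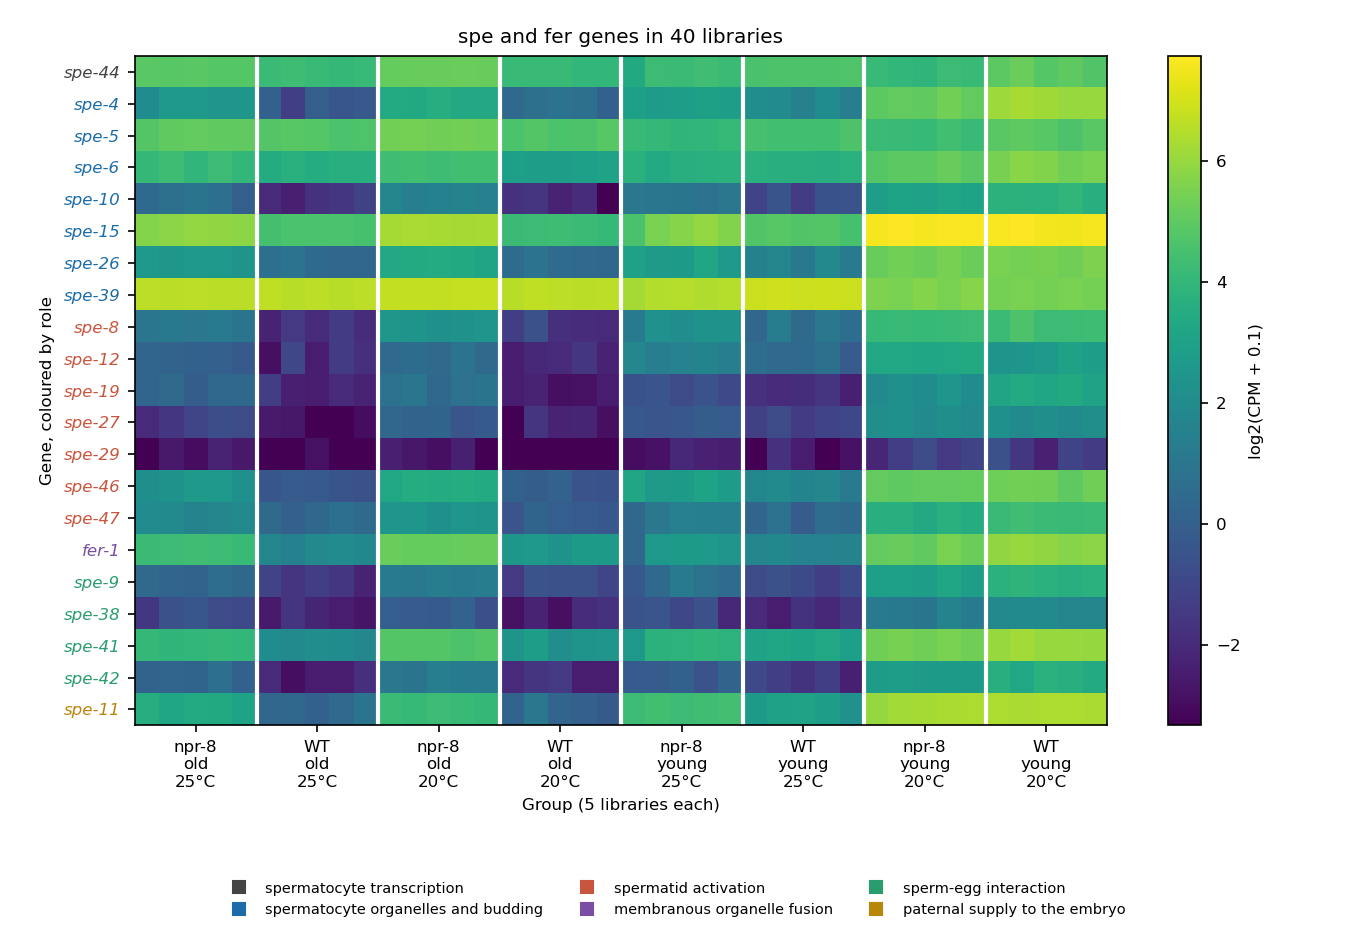
Level of 21 of the 22 spe and fer genes (down) in each of the 40 libraries (across, 5 for each group), as log2(CPM + 0.1) in color. Most genes are brightest in young animals at 20°C and darkest in old wild-type animals, while *spe-39*, *spe-5* and *spe-44* stay at a similar color throughout.

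Growth at 25°C went with a loss of most spe and fer messages in young wild-type animals. Of 21 members tested against young wild-type animals at 20°C, 18 fell and 1, *spe-39*, rose, where 34.8% of all 14976 genes tested were called lower and 21.4% higher. The median member had a log2 fold change of −3.57, against −0.14 over all genes. All 6 tested activation genes and all 4 genes of sperm-egg contact fell, as did 6 of the 8 organelle and budding genes, *fer-1* and *spe-11*. Only at 20°C did *spe-9*, *spe-10*, *spe-19*, *spe-27*, *spe-38* and *spe-42*, among others, reach the test's count minimum of 10 in every library. A rise in these could hardly have been tested.

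The spermatocyte regulator *spe-44* was among the 3 tested members that did not fall. It had 23.5, 24.8, 24.7, 25.3 and 25.7 CPM in young wild-type animals at 25°C, against 30.9, 37.01, 28.5, 31.5 and 26.6 CPM at 20°C, a log2 fold change of −0.28 ± 0.076 (SE; edgeR adjusted p = 0.0032) that is under the fold required. The libraries at 25°C were all lower but close to those at 20°C. Among the organelle genes, *spe-4* had 4.22, 3.89, 2.701, 4.02 and 2.52 CPM at 25°C, against 69.6, 78.1, 70.9, 64.7 and 64.5 CPM at 20°C. Its levels at 25°C lay far below the lowest library at 20°C, and the log2 fold change was −4.29 ± 0.13 (edgeR adjusted p = 9.4e-13). A kinase of the casein kinase 1 family is encoded by *spe-6*, which had 13.3, 12.7, 12.1, 11.8 and 13.1 CPM at 25°C, against 44.7, 54.7, 49.9, 41.2 and 45.9 CPM at 20°C. This was the smallest fall among the called members, with a log2 fold change of −1.87 ± 0.078 (edgeR adjusted p = 2.4e-11), and the groups did not overlap.

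The steepest fall was in the activation gene *spe-19*, which encodes a transmembrane protein of the spermatid. It had 0.201, 0.161, 0.169, 0.228 and 0.0935 CPM in young wild-type animals at 25°C, against 8.69, 10.8, 9.39, 10.5 and 8.14 CPM at 20°C. The level at 25°C was a trace in every library, with a log2 fold change of −5.72 ± 0.18 (edgeR adjusted p = 1.4e-12). Next came *spe-42*, a membrane protein needed to fertilize the egg, with 0.442, 0.321, 0.211, 0.3197 and 0.0935 CPM at 25°C, against 12.6, 9.72, 13.1, 12.6 and 10.6 CPM at 20°C. It also fell to a trace, by 5.33 on the log2 scale (SE 0.22, edgeR adjusted p = 1.9e-11). The non-receptor tyrosine kinase gene *spe-8*, which heads the activation pathway, had 1.17, 2.49, 1.31, 2.06 and 1.496 CPM at 25°C, against 18.4, 24.9, 19.2, 18.9 and 19.5 CPM at 20°C, a log2 fold change of −3.53 ± 0.17 (edgeR adjusted p = 1.4e-10). No library at 25°C came near those at 20°C.

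The late-acting genes behaved alike. The ferlin gene *fer-1* had 3.17, 3.53, 2.91, 2.88 and 2.94 CPM in young wild-type animals at 25°C, against 60.2, 65.8, 60.5, 53.5 and 57.1 CPM at 20°C, with a log2 fold change of −4.23 ± 0.081 (edgeR adjusted p = 3.0e-14). The sperm surface protein with EGF repeats encoded by *spe-9* had 0.482, 0.562, 0.464, 0.3197 and 0.467 CPM at 25°C, against 13.3, 14.6, 13.4, 12.4 and 13.2 CPM at 20°C, with a log2 fold change of −4.81 ± 0.13 (edgeR adjusted p = 4.4e-13). For *spe-11*, a product that sperm bring into the egg, the values were 6.43, 8.07, 8.15, 7.35 and 4.67 CPM at 25°C, against 83.7, 79.9, 83.1, 83.3 and 80.7 CPM at 20°C, with a log2 fold change of −3.53 ± 0.12 (edgeR adjusted p = 3.2e-12). In none of these 3 did the groups overlap, a share that was not counted over all genes. Of the other members that fell, *spe-10* was at −4.74 ± 0.16 and *spe-12* at −2.29 ± 0.18.

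The member that went the other way was *spe-39*, whose protein works in vesicle trafficking in many tissues and not only in sperm. It had 114, 121, 117, 120.3 and 115 CPM in young wild-type animals at 25°C, against 43.4, 45.8, 42.7, 45.7 and 42.7 CPM at 20°C, a log2 fold change of 1.45 ± 0.042 (edgeR adjusted p = 7.3e-13). Every library at 25°C was above every library at 20°C. With the authors' FPKM in place of fragments its log2 fold change was 1.04 and the call was lost (limma adjusted p = 0.111), but it was kept without the library whose FPKM departs from its fragments (young wild-type 25°C replicate 4). The other member that was not called, *spe-5*, which encodes a subunit of the vacuolar ATPase, had a mean of 22.2 ± 1.77 CPM at 25°C and 29.1 ± 2.45 CPM at 20°C (SD, n = 5 each).

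Markers of other cells moved in the same comparison. All 11 oocyte markers rose (median log2 fold change 4.20), their summed level being 10854 to 11550 CPM in young wild-type animals at 25°C, against 658 to 865 CPM at 20°C, and 4 of 5 body wall muscle markers fell (median −1.41). Of 8 molting genes of the epidermis, 5 fell and 2 rose, with summed levels of 131 to 165 CPM at 25°C, against 815 to 1576 CPM at 20°C, and no gene of these 3 lists was at 0 in either group. Of 8 general germline markers 2 rose and none fell (median 0.61, summed levels 3418 to 3568 CPM at 25°C, against 2149 to 2473 CPM at 20°C). The part of these marker changes in the fall of the sperm genes was not tested.

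Age went with a still deeper loss at 20°C. In old wild-type animals at 20°C, 17 of 20 members tested fell and 1, *spe-39*, rose relative to young ones, where 36.7% of all 15329 genes tested were called lower and 26.7% higher. The median log2 fold change was −5.09 over the members and −0.16 over all genes. All tested genes of activation (6), of egg contact (3), of organelle fusion (1) and of embryo supply (1) fell, and 6 of 8 organelle and budding genes did. Only in the young did *spe-8*, *spe-9*, *spe-10*, *spe-12*, *spe-19*, *spe-27*, *spe-38* and *spe-42*, among others, reach the count minimum in every library. A rise in these could hardly have been tested.

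A steep fall with age was in the activation gene *spe-19*. It had 0.0782, 0.108, 0.0386, 0.0402 and 0.078 CPM in old wild-type animals at 20°C, against a mean of 9.501 ± 1.14 CPM in young ones (SD, n = 5), a fitted log2 fold change of −6.95 ± 0.20 (SE; edgeR adjusted p = 4.8e-13). At such trace levels the fitted fold depends on the small prior count that edgeR adds. Every old wild-type library at 20°C was near 0.

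Of the founding members of each role, *spe-11* and *spe-8* lost most. The first had 1.09, 2.06, 1.12, 0.965 and 0.7798 CPM in old wild-type animals at 20°C, against a mean of 82.1 ± 1.72 CPM in young ones (log2 fold change −6.02 ± 0.17, edgeR adjusted p = 1.1e-12). The kinase gene *spe-8* had 0.313, 0.579, 0.193, 0.161 and 0.156 CPM in old animals, against 20.2 ± 2.66 CPM in young ones, a log2 fold change of −6.07 ± 0.23 (edgeR adjusted p = 6.0e-12). Close behind was *spe-4*, with 1.29, 1.59, 1.78, 1.61 and 0.9747 CPM in old animals, against 69.6 ± 5.56 CPM in young ones, a log2 fold change of −5.52 ± 0.12 (edgeR adjusted p = 5.2e-14). These 3 stood at no more than a few percent of the young level. A smaller fall was seen in *spe-9*, with 0.274, 0.615, 0.5797, 0.563 and 0.3899 CPM in old animals, against 13.4 ± 0.791 CPM in young ones (log2 fold change −4.71 ± 0.15, edgeR adjusted p = 1.7e-12). Likewise *fer-1* had 5.71, 5.97, 5.101, 6.35 and 6.004 CPM in old animals, against 59.4 ± 4.57 CPM in young ones (log2 fold change −3.29 ± 0.078, edgeR adjusted p = 1.0e-13). The smallest called fall was again in *spe-6*, which had 7.58, 7.34, 7.23, 7.52 and 8.27 CPM in old animals, against 47.3 ± 5.19 CPM in young ones (log2 fold change −2.58 ± 0.082, edgeR adjusted p = 1.3e-12). None of these 6 genes overlapped between the ages, a share that was not counted over all genes. Among the other members that fell, *spe-10* was at −6.52 ± 0.24 and *spe-15* at −3.33 ± 0.056.

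The 3 members tested that did not fall were *spe-44*, *spe-5* and *spe-39*. The regulator *spe-44* had 17.8, 17.9, 17.5, 15.97 and 16.1 CPM in old wild-type animals at 20°C, below the young mean of 30.9 ± 3.93 CPM in every library but short of the fold required (log2 fold change −0.80 ± 0.083, edgeR adjusted p = 5.0e-07). For the vacuolar ATPase gene *spe-5* the ages overlapped, with means of 26.01 ± 2.02 CPM in old and 29.1 ± 2.45 CPM in young animals. The trafficking gene *spe-39* rose: it had 92.97, 104, 98.2, 97.3 and 98.7 CPM in old animals, against a mean of 44.04 ± 1.55 CPM in young ones, with no overlap and a log2 fold change of 1.21 ± 0.047 (edgeR adjusted p = 8.5e-12). In the same comparison all 11 oocyte markers rose (median log2 fold change 4.04, summed levels 10350.4 to 11181 CPM in old animals, against 658 to 865 CPM in young ones) and all 5 body wall muscle markers fell (median −4.01, summed levels 305 to 569 CPM in old animals, against 8079 to 10644 CPM in young ones), with no gene of these lists at 0. Their part in the fall of the sperm genes was not tested.

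At 25°C, where the young level was already low, age took less. In old wild-type animals at 25°C, 6 of 14 members tested fell and none rose relative to young ones (edgeR; 1 higher at an unadjusted p under 0.05, none by DESeq2), where 15.4% of all 13851 genes were called lower and 9.07% higher, and the median log2 fold change was −0.68 against −0.015 over all genes. Of the 8 members not tested, 7 had too few fragments in these groups and *spe-41* was marked as failed. The 6 that fell were *spe-4*, *spe-8*, *spe-11*, *spe-12*, *spe-26* and *spe-46*. The count of falls was 11 with no filter on low counts and 10 in 1 joint fit over all groups but old *npr-8* animals at 20°C.

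The largest falls were in the activation genes. The kinase gene *spe-8* had 0.113, 0.256, 0.159, 0.277 and 0.163 CPM in old wild-type animals at 25°C, against a mean of 1.703 ± 0.554 CPM in young ones (log2 fold change −3.11 ± 0.29, edgeR adjusted p = 4.1e-08). The membrane protein gene *spe-12* had 0.0376, 0.416, 0.0797, 0.277 and 0.1904 CPM in old animals, against 1.45, 1.28, 1.27, 1.599 and 0.795 CPM in young ones (log2 fold change −2.61 ± 0.34, edgeR adjusted p = 2.5e-06). Both reached the count minimum in every library only in the young, so a rise in them could hardly have been tested. Old and young libraries were apart in both, a share that was not counted over all genes. Also apart were *spe-11*, with 1.17, 1.25, 0.997, 1.27 and 1.79 CPM in old animals, against 6.93 ± 1.44 CPM in young ones (log2 fold change −2.40 ± 0.17, edgeR adjusted p = 1.9e-09), and *spe-4*, with 0.941, 0.3199, 0.917, 0.672 and 0.761 CPM in old animals, against 3.47 ± 0.795 CPM in young ones (log2 fold change −2.28 ± 0.23, edgeR adjusted p = 9.5e-08). The kelch-repeat gene *spe-26* was close to the fold required, at −1.03 ± 0.17, and fell under it with library size alone (−0.82) and (−0.98 to −0.94) when any of old wild-type 25°C replicates 4 and 5 or young wild-type 25°C replicates 2 and 4 was left out.

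Other founding members did not pass the fold required between the ages at 25°C. For *fer-1* the old wild-type libraries had 3.24, 2.85, 3.59, 3.95 and 3.48 CPM, against a mean of 3.09 ± 0.274 CPM in young ones, and the ages overlapped (log2 fold change 0.14 ± 0.12, edgeR adjusted p = 0.279). For *spe-6* they had 11.2, 12.7, 11.4, 12.4 and 12.3 CPM, against 12.6 ± 0.646 CPM (log2 fold change −0.072 ± 0.065, edgeR adjusted p = 0.325). For *spe-9* they had 0.376, 0.224, 0.319, 0.237 and 0.109 CPM, against 0.459 ± 0.0875 CPM (log2 fold change −0.92 ± 0.31, edgeR adjusted p = 0.0122), which passed the fold without old replicate 1 or 3 or young replicate 4. The regulator *spe-44* had 18.2, 19.8, 18.1, 16.6 and 17.95 CPM in old animals, against 24.8 ± 0.853 CPM in young ones (log2 fold change −0.45 ± 0.057, edgeR adjusted p = 1.6e-06). None of the 11 oocyte markers was called at 25°C (median 0.071), while all 5 muscle markers fell (median −2.71).

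The difference between these 2 effects of age was tested as an interaction in wild-type animals. The log2 fold change with age was more positive at 25°C than at 20°C in 17 of 20 members and more negative in 1, where 32% of all 15614 genes were called more positive and 21.9% more negative. The median difference was 3.40 over the members and 0.068 over all genes. It was largest in *spe-19*, at 6.74 ± 0.54 (edgeR adjusted p = 4.2e-11), and in *spe-10*, a palmitoyltransferase of the membranous organelles, at 5.35 ± 0.52 (edgeR adjusted p = 1.5e-09). These sizes rest on old levels near the floor at both temperatures and on young levels that differ. The member with the opposite sign was *spe-39*, at −1.45 ± 0.055 (edgeR adjusted p = 3.1e-17). The call of *spe-27*, an activation gene at 2.02 ± 0.93 (edgeR adjusted p = 0.0496), was lost in 15 of the 20 fits that each left out a library, at 1.62 to 2.10. The oocyte markers went the other way in all 11 (median difference −4.12), and their part in this was not tested.

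Between the temperatures, few of the members tested were called in old wild-type animals, as were few of all genes. The members not tested had too few fragments in these groups, except *spe-41*, which was marked as failed. In old wild-type animals at 25°C, 1 of 11 members tested fell and none rose relative to 20°C (edgeR; 3 higher at an unadjusted p under 0.05, none by DESeq2), where 4.25% of all 13693 genes were called lower and 1.98% higher, and the median log2 fold change was 0.037 against −0.020 over all genes. The called member was *spe-4*, with the old wild-type levels at 25°C and 20°C given above and means of 0.722 ± 0.251 CPM at 25°C and 1.45 ± 0.318 CPM at 20°C. Its log2 fold change was −1.04 ± 0.23 (edgeR adjusted p = 0.0013), and it slipped under the fold required when old 25°C replicate 2 or any of old 20°C replicates 2, 3 and 4 was left out, at −0.83 in the first case. The largest change of the opposite sign was in *spe-6*, at 0.65 ± 0.069 (edgeR adjusted p = 5.6e-07). None of the 11 oocyte markers was called in this comparison (median 0.14).

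**Figure D2:**
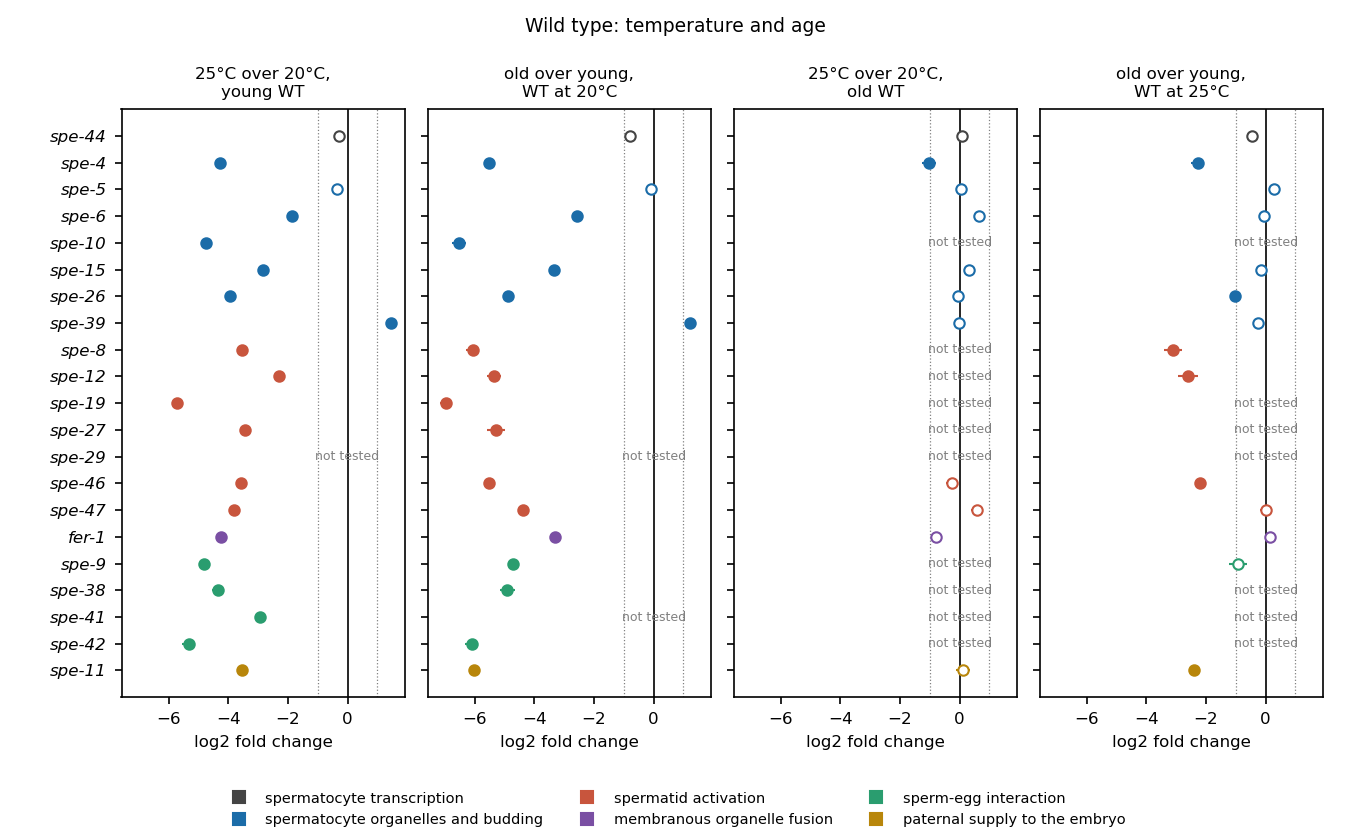
Log2 fold changes with SE of 21 of the 22 spe and fer genes where tested in wild-type animals, in 4 panels: 25°C over 20°C in young animals, old over young at 20°C, 25°C over 20°C in old animals and old over young at 25°C. Filled points passed adjusted p under 0.05 and the fold required. Most genes lie far left of 0 in the panels of young animals at 25°C and of age at 20°C and near 0 in the panel of old animals.

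Loss of *npr-8* went with small differences in young animals at 20°C. In young *npr-8* animals at 20°C, 1 of 21 members fell and none rose relative to young wild-type animals (edgeR; none higher by DESeq2 or limma either), where 1.47% of all 14872 genes were called lower and 4.39% higher, and the median log2 fold change was −0.64 against −0.0028 over all genes. Without the fold requirement, a count added after the data were seen, 13 members were lower, 2 higher (*spe-12* and *spe-39*) and 6 neither at an edgeR adjusted p under 0.05, where 16.1% of all genes were lower and 17.1% higher. The member that passed the fold was *spe-19*, with 3.87, 4.58, 4.13, 5.49 and 4.01 CPM in young *npr-8* animals at 20°C, against a mean of 9.501 ± 1.14 CPM in wild-type animals (log2 fold change −1.09 ± 0.12, edgeR adjusted p = 3.0e-05). Its groups did not overlap, but with limma on log2(FPKM + 1) it was at −0.95 and not called.

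Just short of the fold was *spe-4*, with 31.3, 33.7, 32.97, 41.7 and 33.4 CPM in young *npr-8* animals at 20°C, against a mean of 69.6 ± 5.56 CPM in wild-type animals (log2 fold change −0.995 ± 0.078, edgeR adjusted p = 5.4e-06). It passed with limma on log2(FPKM + 1) (−1.03), library size alone (−1.02), no filter (−1.003) and the joint fit (−1.01). It also passed without *npr-8* replicate 4 or wild-type replicate 4 or 5 (−1.07 to −1.01). The regulator *spe-44* had 17.4, 15.95, 15.1, 19.2 and 18.1 CPM in *npr-8* animals, against 30.9 ± 3.93 CPM in wild-type animals (log2 fold change −0.84 ± 0.090, edgeR adjusted p = 3.5e-05), so that its mutant libraries were all lower. Similar shifts were measured in *fer-1*, with 33.4, 35.7, 33.1, 45.1 and 37.9 CPM in *npr-8* animals (log2 fold change −0.67 ± 0.085, edgeR adjusted p = 9.3e-05), and in *spe-9*, with 7.53, 7.37, 7.05, 9.15 and 7.28 CPM (log2 fold change −0.79 ± 0.085, edgeR adjusted p = 3.5e-05). The kinase gene *spe-6* had 28.6, 31.1, 31.01, 35.4 and 29.7 CPM in *npr-8* animals (log2 fold change −0.59 ± 0.079, edgeR adjusted p = 1.4e-04). All of these lay below every wild-type library but by less than the fold required. The share of all genes separated in this way was not counted.

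Other founding members overlapped with wild type. The kinase gene *spe-8* had 16.8, 17.8, 17.02, 17.5 and 18.9 CPM in young *npr-8* animals at 20°C (log2 fold change −0.18 ± 0.080, edgeR adjusted p = 0.0979), and *spe-11* had 63.7, 73.2, 74.98, 80.4 and 83.99 CPM (log2 fold change −0.12 ± 0.065, edgeR adjusted p = 0.19). In the same animals 8 of 11 oocyte markers rose (median 1.17, summed levels 1165 to 1994 CPM in *npr-8* animals, against 658 to 865 CPM in wild-type animals), and so did 5 of 8 molting genes (median 2.07, summed levels 1362 to 3189.8 CPM in *npr-8* animals, against 815 to 1576 CPM in wild-type animals). No marker of these lists was at 0, and their part in the sperm gene shifts was not tested.

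At 25°C the difference between the genotypes had the other sign. In young *npr-8* animals at 25°C, 12 of 19 members rose and none fell relative to wild-type animals of that age and temperature (edgeR; 3 lower at an unadjusted p under 0.05, none by DESeq2 or limma), where 14.4% of all 13959 genes were called higher and 2.84% lower, and the median log2 fold change was 1.20 against 0.064 over all genes. The rise was in 5 of 6 activation genes, both tested genes of egg contact, *spe-11* and 4 of 8 organelle genes. A library of this group, *npr-8* 25°C replicate 1, stands apart from the other 4 (its median correlation with them was 0.976), with summed oocyte markers of 3389.9 CPM and summed muscle markers of 1211 CPM, where the group's medians were 7653 and 5022 CPM. Without that library 11 members rose, *spe-27* being lost at 0.99. With limma on log2(FPKM + 1) none rose, or 4 without the 2 libraries whose FPKM depart from their fragments.

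The largest rises were in genes at trace level in wild type. Only in the mutants did *spe-9*, *spe-10*, *spe-19*, *spe-27* and *spe-42*, among others, reach the count minimum in every library. A fall in these could hardly have been tested, so the absence of falls says little about them. The palmitoyltransferase gene *spe-10* had 2.002, 1.94, 1.84, 1.705 and 1.98 CPM in young *npr-8* animals at 25°C, against 0.362, 0.642, 0.295, 0.594 and 0.608 CPM in wild-type animals (log2 fold change 1.93 ± 0.20, edgeR adjusted p = 1.3e-05). The activation gene *spe-19* had 0.5801, 0.645, 0.472, 0.614 and 0.451 CPM in *npr-8* animals, against a mean of 0.1704 ± 0.0508 CPM in wild-type animals (log2 fold change 1.69 ± 0.25, edgeR adjusted p = 1.5e-04). Neither overlapped between the genotypes, a share that was not counted over all genes. Among the founding members that rose, *spe-11* had 19.2, 20.6, 19.1, 20.5 and 21.3 CPM in *npr-8* animals, against 6.93 ± 1.44 CPM in wild-type animals (log2 fold change 1.55 ± 0.13, edgeR adjusted p = 4.7e-06). The surface protein gene *spe-9* had 0.725, 1.29, 2.17, 1.705 and 1.35 CPM in *npr-8* animals, against 0.459 ± 0.0875 CPM in wild-type animals (log2 fold change 1.63 ± 0.29, edgeR adjusted p = 5.7e-04). Every *npr-8* library was above every wild-type library in both, again without a count over all genes. Of the 6 other members that rose besides *spe-4* and *spe-8*, *spe-42* was the highest, at 1.60 ± 0.29, and *spe-27* the lowest, at 1.003 ± 0.19. The call of *spe-27* was lost in 6 of the 10 fits that each left out a library, at 0.92 to 0.99. Those were the fits without *npr-8* replicate 1, 4 or 5 or wild-type replicate 1, 3 or 4. The call was also lost, at 0.94 to 0.98, with RLE factors, DESeq2, failed genes kept and the joint fit.

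For *spe-4* the values were 7.48, 6.54, 7.32, 7.67 and 7.21 CPM in *npr-8* animals, against 3.47 ± 0.795 CPM in wild-type animals (log2 fold change 1.08 ± 0.15, edgeR adjusted p = 8.8e-05), and it lost the fold without wild-type replicate 3 or 5, at 0.99 and 0.95. The library that stands apart was low in several members. It was the highest of its group in others, such as *spe-12* (3.34 CPM) and *spe-46* (9.25 CPM). In *spe-8*, with 2.26, 4.75, 4.201, 4.84 and 5.09 CPM in *npr-8* animals, against 1.703 ± 0.554 CPM in wild-type animals (log2 fold change 1.31 ± 0.25, edgeR adjusted p = 9.3e-04), it was the lowest, and the log2 fold change without it was 1.46. In *fer-1*, with 1.16, 5.897, 6.51, 6.103 and 5.32 CPM in *npr-8* animals, against 3.09 ± 0.274 CPM in wild-type animals (log2 fold change 0.69 ± 0.34, edgeR adjusted p = 0.0974), it was below every wild-type library while the other 4 were above them all, and the log2 fold change without it was 0.93. The regulator *spe-44* had 10.4, 19.3, 18.3, 20.1 and 18.4 CPM in *npr-8* animals, against 24.8 ± 0.853 CPM in wild-type animals (log2 fold change −0.51 ± 0.15, edgeR adjusted p = 0.0108), and −0.39 without it. The difference was smaller than its SE in *spe-6*, with 13.2, 10.9, 12.4, 13.02 and 13.3 CPM in *npr-8* animals (log2 fold change 0.011 ± 0.088, edgeR adjusted p = 0.922), and its sign turned with several settings. The part of what sets this library apart in these values was not tested.

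The effect of the mutation in young animals was more positive at 25°C than at 20°C in 13 of 20 members and more negative in none (edgeR; 1 at an unadjusted p under 0.05, none by DESeq2), where 15.9% of all 15472 genes were called more positive and 5.51% more negative. The median difference was 1.45 over the members and 0.096 over all genes. It was largest in *spe-19*, at 2.77 ± 0.28 (edgeR adjusted p = 5.9e-08), and in *spe-10*, at 2.65 ± 0.20 (edgeR adjusted p = 2.1e-09). The genes of egg contact *spe-9*, *spe-38* and *spe-42* all passed, at 2.39 ± 0.26, 2.19 ± 0.40 and 2.42 ± 0.28. The only negative difference was that of *spe-39*, at −0.62 ± 0.081, under the fold required. The 11 oocyte markers were all called more negative (median −1.97), and their part was not tested.

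In old animals most members were higher in the mutants than in wild type. In old *npr-8* animals at 20°C, 18 of 20 members rose and none fell relative to old wild-type animals (edgeR; also none lower at an unadjusted p under 0.05 or by DESeq2 or limma), where 10.5% of all 13617 genes were called higher and 9.23% lower, and the median log2 fold change was 2.99 against −0.028 over all genes. All 6 tested activation genes, all 3 of egg contact, *fer-1*, *spe-11*, *spe-44* and 6 of 8 organelle genes rose, and the exceptions were *spe-5* and *spe-39*, at 0.77 ± 0.052 and 0.23 ± 0.035. The median member stood at 23.9% of the young wild-type level at 20°C in old *npr-8* animals and at 2.72% in old wild-type animals.

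Large rises were again in genes near absence in wild type. Only in the mutants did *spe-8*, *spe-9*, *spe-10*, *spe-12*, *spe-19*, *spe-27*, *spe-38* and *spe-42*, among others, reach the count minimum in every library. A fall in these could hardly have been tested, so the absence of falls says little about them. The activation gene *spe-19* had 1.67, 1.95, 1.18, 1.68 and 1.82 CPM in old *npr-8* animals at 20°C, against a mean of 0.0687 ± 0.0295 CPM in wild-type animals (fitted log2 fold change 4.61 ± 0.29, edgeR adjusted p = 5.3e-12), and was detected in every mutant library. The kinase gene *spe-8* had 5.63, 5.13, 4.54, 5.08 and 5.295 CPM in *npr-8* animals, against 0.2803 ± 0.178 CPM in wild-type animals (log2 fold change 4.26 ± 0.20, edgeR adjusted p = 2.8e-14). For *spe-11* the values were 18.4, 17.1, 19.3, 17.8 and 16.3 CPM in *npr-8* animals, against 1.204 ± 0.498 CPM in wild-type animals (log2 fold change 3.98 ± 0.14, edgeR adjusted p = 1.1e-14). The lowest mutant library was several times the highest wild-type library in both, a share that was not counted over all genes.

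The same held at smaller size in other roles. The presenilin family gene *spe-4* had 10.8, 10.4, 11.9, 10.2 and 10.05 CPM in old *npr-8* animals at 20°C, against 1.45 ± 0.318 CPM in wild-type animals (log2 fold change 2.99 ± 0.11, edgeR adjusted p = 1.2e-15). The surface protein gene *spe-9* had 2.19, 2.08, 2.502, 2.21 and 2.47 CPM in *npr-8* animals, against 0.484 ± 0.146 CPM in wild-type animals (log2 fold change 2.34 ± 0.18, edgeR adjusted p = 1.5e-10). With 36.5, 34.3, 34.99, 35.5 and 36.2 CPM in *npr-8* animals, against 5.83 ± 0.467 CPM in wild-type animals, *fer-1* rose too (log2 fold change 2.72 ± 0.061, edgeR adjusted p = 6.5e-19). Its mean was 35.5 ± 0.8999 CPM in old and 37.05 ± 4.904 CPM in young *npr-8* animals at 20°C, a difference between ages in the mutant that was not tested. Smaller rises were in *spe-6*, with 20.2, 20.8, 19.5, 20.9 and 20.6 CPM in *npr-8* animals (log2 fold change 1.54 ± 0.061, edgeR adjusted p = 2.5e-15), and in the regulator *spe-44*, with 34.97, 35.6, 36.02, 36.6 and 35.9 CPM in *npr-8* animals, against 17.1 ± 0.939 CPM in wild-type animals (log2 fold change 1.18 ± 0.049, edgeR adjusted p = 5.7e-15). Of the comparisons made, the one in old animals at 20°C is the only one in which *spe-44* passed the fold. Among the other members that rose, *spe-15* was at 2.16 ± 0.043 and *spe-10* at 4.44 ± 0.25.

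Markers of the germ line and of oocytes were not called in old animals at 20°C. None of the 8 germline markers (median 0.36, summed levels 3445 to 3606 CPM in *npr-8* animals, against 2965 to 3048 CPM in wild-type animals) and none of the 11 oocyte markers (median −0.12, summed levels 8513 to 9579.9 CPM, against 10350.4 to 11181 CPM) was called, while 6 of 8 molting genes and 2 of 4 tested body wall muscle markers fell (medians −1.30 and −0.95) and 1 of 3 tested embryo markers rose (median 0.082). Their part in the rise of the sperm genes was not tested. The values of old *npr-8* animals at 20°C are sums over transcripts, and 3 members have more than 1 transcript tested, whose fragments Cuffdiff divided by estimate. The main transcript of *spe-15* rose (2.36 ± 0.052, edgeR adjusted p = 2.0e-09) and the other 2 were at 0.64 ± 0.25 and −0.017 ± 1.20. Both transcripts of *fer-1* rose, at 3.28 ± 0.26 and 1.78 ± 0.43, and of 2 of *spe-41* the main transcript rose (2.63 ± 0.13) and the other was at 1.23 ± 1.09.

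Old animals at 25°C gave the same direction. In old *npr-8* animals at 25°C, 14 of 18 members rose and none fell relative to old wild-type animals at 25°C (edgeR; also none lower at an unadjusted p under 0.05 or by DESeq2 or limma), where 10.1% of all 14380 genes were called higher and 3.5% lower, and the median log2 fold change was 2.46 against −0.0094 over all genes. All 5 tested activation genes, both tested genes of egg contact, *fer-1*, *spe-11* and 5 of 8 organelle genes rose. The members that did not pass were *spe-5*, *spe-6*, *spe-39* and *spe-44*.

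A large rise was in the egg-contact gene *spe-42*, with 1.04, 1.104, 1.08, 1.53 and 0.9754 CPM in old *npr-8* animals at 25°C, against 0.1505, 0.032, 0.0797, 0.0791 and 0.1904 CPM in wild-type animals (fitted log2 fold change 3.41 ± 0.30, edgeR adjusted p = 1.0e-07). With limma on log2(FPKM + 1), a scale that understates changes of low genes, it was at 0.70 and not called. Each mutant library was above each wild-type library. Only in the mutants did *spe-8*, *spe-9*, *spe-10*, *spe-12*, *spe-19* and *spe-42*, among others, reach the count minimum in every library. A fall in these could hardly have been tested, so the absence of falls says little about them. The kinase gene *spe-8* had 1.92, 2.11, 1.98, 2.199 and 1.78 CPM in *npr-8* animals, against a mean of 0.194 ± 0.0697 CPM in wild-type animals (log2 fold change 3.41 ± 0.20, edgeR adjusted p = 9.2e-10). For *spe-11* the values were 11.7, 9.33, 10.6, 10.5 and 8.51 CPM in *npr-8* animals, against 1.29 ± 0.2995 CPM in wild-type animals (log2 fold change 2.998 ± 0.14, edgeR adjusted p = 6.8e-11). Both were well above wild type in all 5 mutant libraries.

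The remaining founding members split by size. For *spe-4* the values were 4.05, 5.99, 5.998, 5.37 and 5.62 CPM in old *npr-8* animals at 25°C (log2 fold change 2.99 ± 0.19, edgeR adjusted p = 2.8e-09), and for *spe-9* they were 1.33, 1.14, 1.05, 1.45 and 1.21 CPM (log2 fold change 2.39 ± 0.24, edgeR adjusted p = 4.4e-07). The ferlin gene *fer-1* had 18.4, 19.1, 20.1, 19.2 and 17.3 CPM in *npr-8* animals, against 3.42 ± 0.412 CPM in wild-type animals (log2 fold change 2.53 ± 0.087, edgeR adjusted p = 5.3e-12). These 3 did not overlap with wild type, a share that was not counted over all genes. With limma on log2(FPKM + 1) the call of *spe-9* in old animals was lost at both temperatures, at 0.599 at 25°C and 0.93 at 20°C. Among the other members that rose, *spe-15* was at 1.34 ± 0.060 and *spe-19* at 3.004 ± 0.27. Under the fold required were *spe-6*, with 16.2, 19.4, 15.4, 18.98 and 15.9 CPM in *npr-8* animals (log2 fold change 0.58 ± 0.080, edgeR adjusted p = 1.5e-05), and *spe-44*, with 29.6, 29.1, 30.02, 28.4 and 28.6 CPM in *npr-8* animals (log2 fold change 0.74 ± 0.059, edgeR adjusted p = 3.6e-08), both above every wild-type library. No oocyte or germline marker was called (medians −0.41 and 0.20).

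Whether the mutation's effect in old animals differed between temperatures was tested as well. It was more negative at 25°C than at 20°C in 3 of 20 members and more positive in none (edgeR; also none at an unadjusted p under 0.05 or by DESeq2), where 2.44% of all 14056 genes were called more negative and 4.62% more positive, and the median difference was −0.83 against 0.0033 over all genes. The 3 were *spe-10*, at −1.65 ± 0.50 (edgeR adjusted p = 0.0122), *spe-19*, at −1.61 ± 0.52 (edgeR adjusted p = 0.0174), and *spe-47*, an activation gene, at −1.24 ± 0.19 (edgeR adjusted p = 2.3e-05). The call of *spe-10* was lost without old wild-type 25°C replicate 5 and that of *spe-19* without old wild-type 25°C replicate 1, and *spe-11*, at −0.99 ± 0.23, passed in 10 of the 20 fits that each left out a library.

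**Figure D3:**
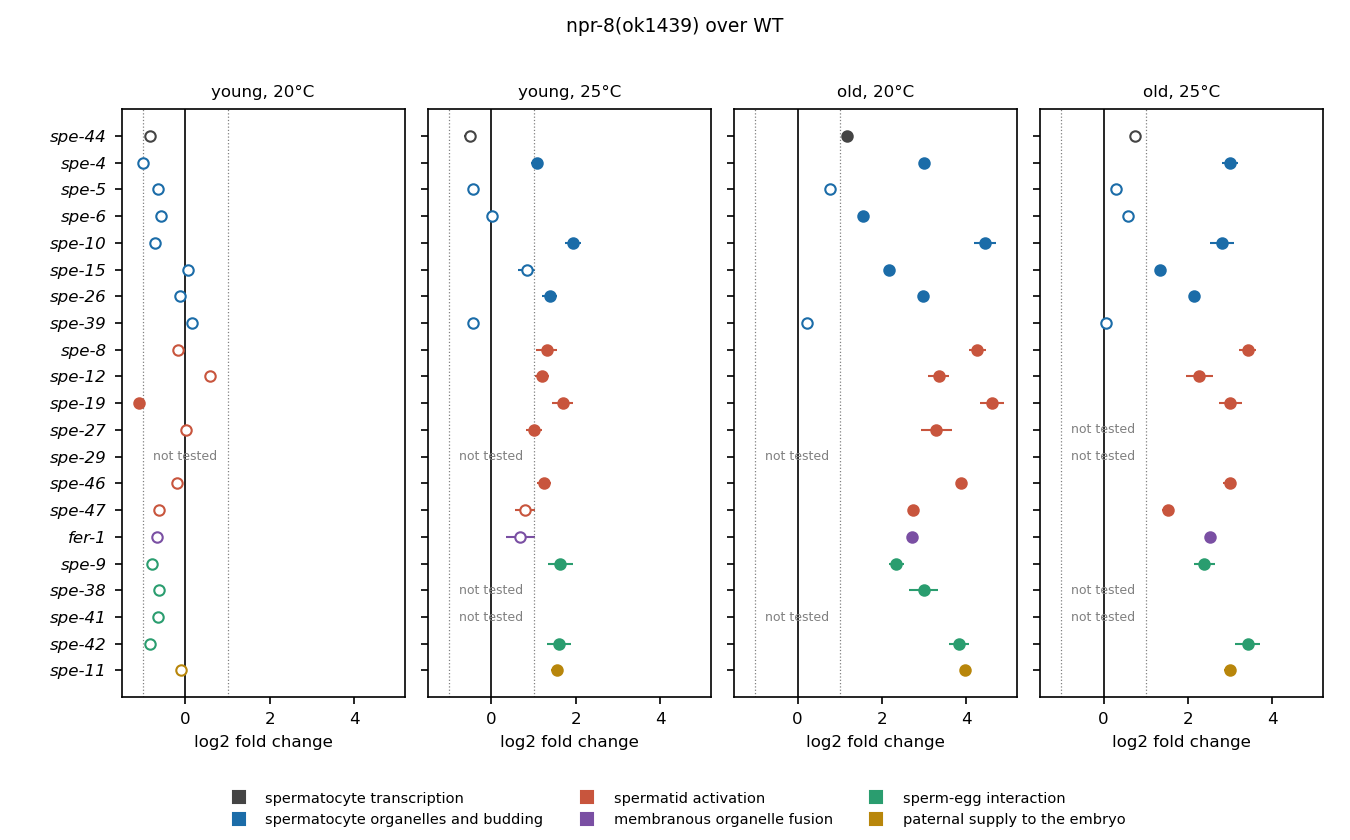
Log2 fold changes with SE of *npr-8(ok1439)* over wild-type animals for 21 of the 22 spe and fer genes where tested, in 4 panels for young animals at 20°C, young animals at 25°C, old animals at 20°C and old animals at 25°C. Filled points passed adjusted p under 0.05 and the fold required: 1, 11, 17 and 13 of these genes in panel order, the first below 0 and the rest above it.

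Sums over members were compared as well. The 22 genes together had 299 to 317 CPM in old *npr-8* animals at 25°C, against 186 to 197 CPM in old wild-type animals at 25°C, and 415 to 419 CPM in old *npr-8* animals at 20°C, against 179 to 198 CPM in old wild-type animals at 20°C. The genotypes overlapped for the 22 when young and kept at 25°C, with 205 to 281 CPM in *npr-8* animals, against 229.8 to 249 CPM in wild-type animals, and the young at 20°C had 622 to 703 CPM in *npr-8* animals, against 771 to 883 CPM in wild-type animals. Leaving out *spe-5*, *spe-39* and *spe-44*, the 3 members with the steadiest level, a choice made after their values were seen, the other 19 had 142 to 157 CPM in old *npr-8* animals at 25°C, against 47.9 to 51.3 CPM in wild-type animals, and 232 to 237 CPM in old *npr-8* animals at 20°C, against 42.1 to 48.9 CPM in wild-type animals. The young groups of these 19 had 101 to 159.6 CPM in *npr-8* animals at 25°C, against 64.2 to 81.7 CPM in wild-type animals at 25°C, and 538 to 617 CPM in *npr-8* animals at 20°C, against 669 to 768 CPM in wild-type animals at 20°C. The groups of old wild-type animals had the lowest sums, and the 2 temperatures overlapped there.

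**Figure D4:**
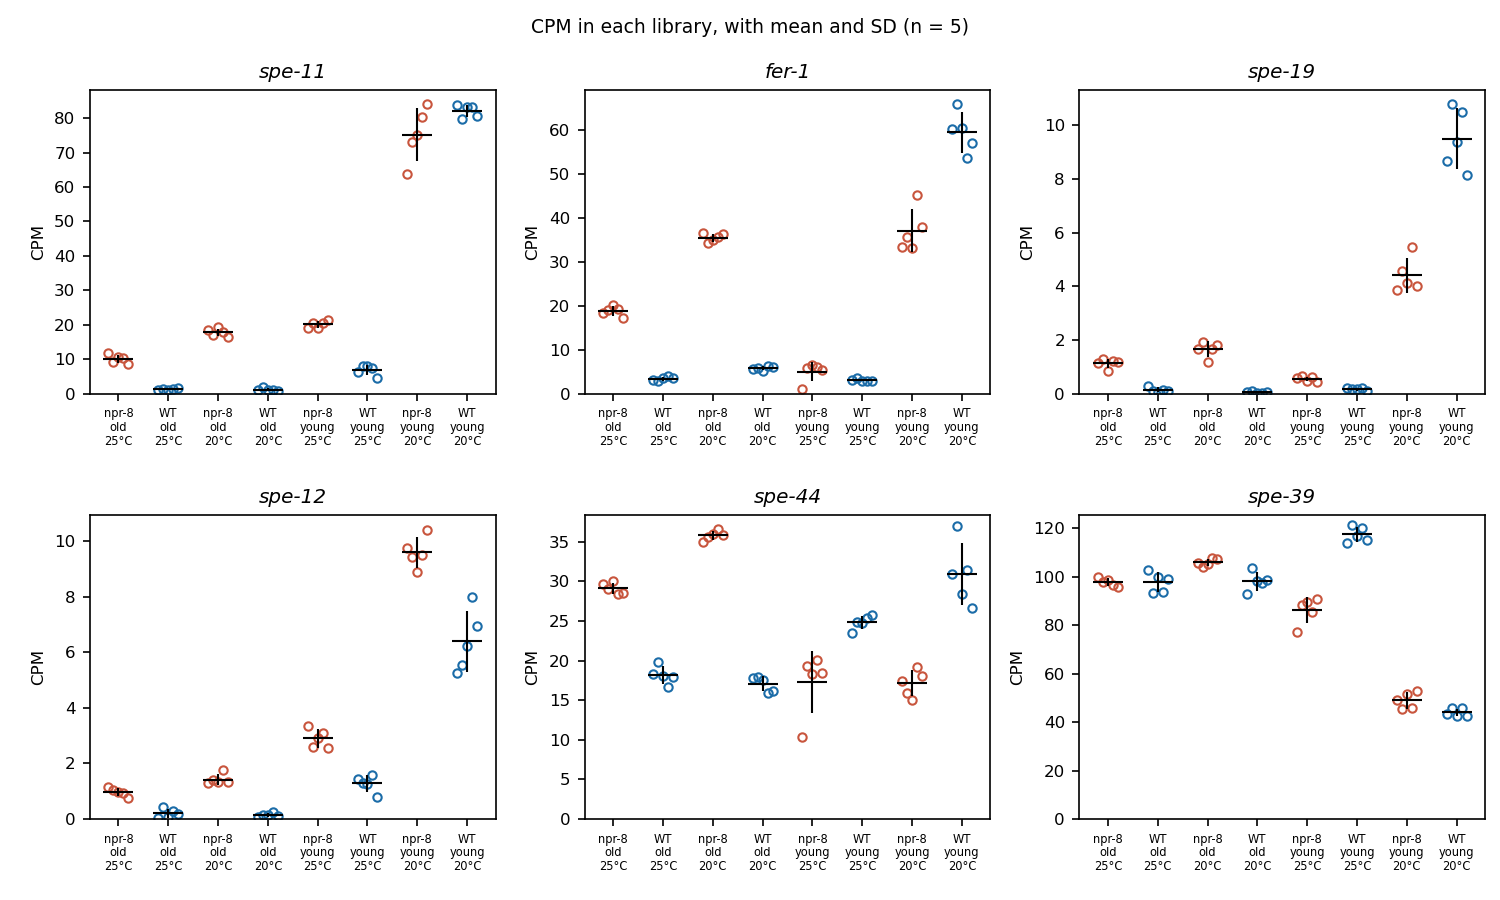
Level (CPM) of *spe-11*, *fer-1*, *spe-19*, *spe-12*, *spe-44* and *spe-39* in each library, with the mean and SD of each group of 5, *npr-8* animals in red beside wild-type animals in blue. In old animals the *npr-8* points of *spe-11*, *fer-1*, *spe-19* and *spe-12* lie above all wild-type points at the same temperature, and those of *spe-39* lie close to them.

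Of the remaining members, *spe-29* could not be tested and *spe-41* only in part. The activation gene *spe-29* was below the count minimum in every comparison: it had 0 fragments in old wild-type animals at 20°C, against 42 over the 5 libraries of young ones, which is at least 2.72-fold lower in the old animals when the floor of 3 fragments is taken per library. In old wild-type animals at 25°C it had 1 fragment, against 8 in young ones, a ratio of 0.101 (95% exact interval 0.0023 to 0.751, counting error only), and in old *npr-8* animals at 25°C it had 9, against 1 in wild-type animals, a ratio of 8.81 (1.22 to 386). The TRPC channel gene *spe-41*, which the authors' runs marked as failed in 3 tables, was tested in young animals for temperature (log2 fold change −2.92 ± 0.074, edgeR adjusted p = 2.8e-13) and for genotype at 20°C (−0.65 ± 0.054, edgeR adjusted p = 7.6e-06). With failed genes kept, an alternative added after the data were seen, it fell with age at 20°C (−3.56 ± 0.11) and at 25°C (−1.16 ± 0.096), and it rose in old *npr-8* animals at 20°C (2.42 ± 0.086) and at 25°C (2.10 ± 0.076), all by edgeR. In young *npr-8* animals at 25°C it was at 0.53 ± 0.21 and not called, where 12 of 19 members rose.

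Other genes of the sperm program moved like the spe and fer genes in most comparisons. A list of 31 such genes, among them the sperm fate genes *fog-1* and *fog-3*, the phosphatases *gsp-3* and *gsp-4* and the small proteins of the ssp, smz and msd families, has 26 in the tables. In warm-grown young wild-type animals, 20 of 24 tested fell and 2 rose (median −2.75), the 2 being *fog-1* and *ssp-37*, at 2.202 ± 0.066 and 4.84 ± 0.35. With age 20 of 24 fell at 20°C and 2 rose (median −5.42), and 14 of 19 fell at 25°C (median −2.99). Of all genes, 34.8% were called lower with warmth in the young, 36.7% with age at 20°C and 15.4% with age at 25°C. In old *npr-8* animals 19 of 20 rose at 20°C (median 3.73) and 14 of 19 at 25°C (median 3.06). In young *npr-8* animals at 25°C 16 of 21 rose (median 1.17). Called higher in the same order were 10.5%, 10.1% and 14.4% of all genes. In young *npr-8* animals at 20°C their median was 0.30, with 3 rising (*ssp-19*, *ssp-33* and *ssp-37*) and none falling. Of all genes, 4.39% were called higher there and 1.47% lower. The spe and fer median was −0.64, and whether the lists differ there was not tested.

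Genes that received a spe number later, and stand in the tables under sequence names, were also counted, by a list chosen after the tables were opened. Of the 11 in the tables, 10 fell in warm-grown young wild-type animals (median −3.63). With age 10 fell at 20°C (median −5.31) and 5 of 8 at 25°C (median −2.54). Called lower in the same order were 34.8%, 36.7% and 15.4% of all genes. In old *npr-8* animals 7 of 10 rose at 20°C (median 3.02) and 7 of 9 at 25°C (median 2.82). In young *npr-8* animals 6 of 10 rose at 25°C (median 1.07) and none of 11 was called at 20°C (median −0.17). Called higher in the same order were 10.5%, 10.1%, 14.4% and 4.39% of all genes. The signal that activates male sperm and its inhibitor, *try-5* and *swm-1*, were not called between the genotypes where tested, *try-5* being under the count minimum for the young at 25°C. With age *try-5* rose in wild-type animals, by 1.15 ± 0.19 at 20°C and 1.92 ± 0.22 at 25°C on the log2 scale (edgeR adjusted p = 5.8e-05 and 5.5e-07).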

How the data were processed

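RNA of 40 whole-animal libraries was prepared with a stranded mRNA kit. The study's methods name HISAT2, Cuffquant and Cuffdiff with the ce10 build, and the submitters' processing notes name Bowtie2 2.3.4 and Cufflinks 2.2.1 with Cuffdiff, so the aligner is given in 2 ways. The authors deposited, for each gene and library, the estimated count of fragments, unscaled, and an FPKM value that was scaled by Cuffdiff within its table. Library index 0 to 4 in the tables was read as replicates 1 to 5. For old *npr-8* animals at 20°C, estimated counts deposited per transcript were summed to genes, and 20 of the 22 members could be tested there. The authors' own fold changes and tests, in 5 further tables, and 12 columns of scaled fragments were not used here.

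Estimated counts were rounded and tested with edgeR 4.0.16 in R 4.3.3 (quasi-likelihood test, TMM scaling, minimum count 10 and minimum total 15), with genes marked as failed left out and p-values adjusted over all genes by Benjamini-Hochberg. Each comparison was fitted on its own 10 libraries and each interaction on its 20. Levels are CPM after TMM scaling over the 40 libraries (median depth 26451138 fragments), and depth limits what can be seen of genes under about 1 CPM. The code was tested on simulated data. Alternatives were library size or RLE scaling, no filter, DESeq2 1.42.0, limma 3.58.1 on log2(FPKM + 1) and an adjusted p under 0.01. Others were a replicate block, transcripts in place of genes and leaving out each replicate. A joint fit of all groups but old *npr-8* animals at 20°C was also made. Values in every library were given for the 2 called members with the largest change in each direction, for called members against the main direction, and for *spe-44*, *fer-1*, *spe-4*, *spe-6*, *spe-8*, *spe-9* and *spe-11*, except that 1 member is counted but not reported here by name. The members and gene lists were chosen with earlier results of these data known. Intervals and floors cover counting error only. Sequences of the members were not used here.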

Additional observations from a re-analysis of the deposited data

Results flagged for a closer look

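In groups of 5 libraries, 14 of the 167 pairs of a gene and a group with at least 10 fragments held a library far from the other 4, a gap of over 0.71 of the group's range, which is 8.38% of the pairs where chance gives about 1 in 20. Young *npr-8* 25°C replicate 1 was the low library for *fer-1* (1.16 CPM), *spe-41* (5.86 CPM) and *spe-44* (10.4 CPM). Young *npr-8* 20°C replicate 4 was the high library for *spe-4* (41.7 CPM), *spe-9* (9.15 CPM) and *spe-38* (3.02 CPM). Old *npr-8* 20°C replicate 4 was high for *spe-12* (1.75 CPM) and low for *spe-41* (24.9 CPM), and old *npr-8* 25°C libraries stood apart in *spe-5* (replicate 1 low, 27.5 CPM) and *spe-42* (replicate 4 high, 1.53 CPM). In wild-type animals, young 20°C replicate 2 was high for *spe-8* (24.9 CPM) and *spe-41* (74.8 CPM), young 20°C replicate 4 was low for *spe-46* (31.6 CPM), and old 20°C replicate 2 was high for *spe-11* (2.06 CPM).

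Effects that differed between groups were called by the test of the interaction itself (edgeR). For age between the temperatures in wild-type animals, 18 of 20 members tested were called. Of all genes, 32% were called more positive and 21.9% more negative there. For the mutation between the temperatures in young animals, 13 of 20 members were called, with 15.9% and 5.51% of all genes. In old animals 3 of 20 members were called, with 4.62% and 2.44% of all genes.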

How the results depend on the processing

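Of the values recomputed under the alternatives, 4196 kept their direction and their side of the threshold, 68 lost a call, 39 gained one and 66 turned sign, the last near 0. With limma on FPKM the count of members rising with warmth in the young wild type was 0 and that of members rising in young *npr-8* animals at 25°C was 0, or 4 without the libraries whose FPKM depart from their fragments (young wild-type 25°C replicate 4 and young *npr-8* 25°C replicate 3), an alternative added after the data were seen. Falls with age at 25°C numbered 11 without the filter, which tests more members, and 10 in the joint fit. Falls in young *npr-8* animals at 20°C numbered 2 with library size alone, without the filter and in the joint fit. At any size there were 13 falls and 2 rises. In old animals the interaction of mutation and temperature kept 1 member at an adjusted p under 0.01. For the changes with no cause given here, the cause was not tested.

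When each replicate was left out in turn, counts of members ran from 0 to 2 for falls with warmth in the old wild type, 5 to 7 for falls with age at 25°C, 1 to 2 for falls in young *npr-8* animals at 20°C, 10 to 12 for rises in young *npr-8* animals at 25°C, 14 to 15 for rises in old *npr-8* animals at 25°C, 16 to 17 for the interaction of age and temperature, 13 to 14 for that of mutation and temperature in young animals and 2 to 5 for that in old animals. No other count moved. Signs turned within these ranges. Between temperatures in old wild-type animals they were −0.055 to 0.39 for *spe-11*, −0.16 to 0.035 for *spe-26* and −0.044 to 0.0056 for *spe-39*. The range was −0.13 to 0.12 for *spe-47* with age at 25°C, −0.047 to 0.050 for *spe-27* in young *npr-8* animals at 20°C and −0.046 to 0.033 for *spe-6* at 25°C. In the interaction of mutation and temperature in old animals it was −0.20 to 0.11 for *spe-4*, −0.19 to 0.24 for *spe-9* and −0.46 to 0.44 for *spe-27*.

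Other settings turned the sign of log2 fold changes near 0. Between temperatures in old wild-type animals *spe-39* was at 0.012 without the filter. With age at 20°C *spe-5* was at 0.035 with RLE factors and 0.036 with DESeq2. With age at 25°C *spe-6* was at 0.14 and *spe-15* at 0.047 with library size alone, and *spe-47* was at 0.021 with RLE factors, 0.21 with library size alone and 0.023 with DESeq2. In young *npr-8* animals at 20°C *spe-15* was at −0.037 with limma. There *spe-27* was at −0.025 with library size alone, −0.0053 without the filter, −0.0014 with DESeq2 and −0.014 in the joint fit. In young *npr-8* animals at 25°C *spe-6* was at −0.049 with RLE factors, −0.011 with failed genes kept and −0.047 with DESeq2. It was at −0.052 with limma, −0.091 with limma without the departing libraries and −0.023 in the joint fit. In old *npr-8* animals at 25°C *spe-39* was at −0.019 in the joint fit. In the interaction of mutation and temperature in old animals *spe-4* was at 0.10 with library size alone and 0.033 without the filter.

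With library size alone the median of all genes moved by 0.21 with age at 25°C, where 47.98% of calls were then higher against 37.03% with TMM scaling, by −0.17 with warmth in the young wild type, by 0.17 in young *npr-8* animals at 25°C, and by 0.15, 0.21 and 0.11 in the interactions, in the last of which 76.0% of calls were more positive against 65.4%. RLE factors moved it by 0.11 with warmth in the young wild type and by 0.14 with age at 20°C. The replicate numbers are shared by the groups, but in no comparison did all 5 same-numbered pairs deviate together (correlations from −0.40 to 0.24). A fit with the replicate number as a block moved no count by over 1.5 times: *spe-27* was lost from the interaction of age and temperature (2.02, edgeR adjusted p = 0.0736) and *spe-11* was gained in that of mutation and temperature in old animals (−1.01, edgeR adjusted p = 0.00382). Depth limits the members under 1 CPM in old wild-type animals, *spe-29* among them.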
